A study of Drosophila melanogaster with 12 samples.

Results

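Accessible chromatin was compared at 2-3 h of development between Drosophila embryos from mothers without HIRA and wild-type embryos labelled as their controls. The members are the regions at which both libraries of a group had an ATAC-seq peak. Peaks had to overlap by at least 20% of both, and matched peaks were merged. This gave 5589 regions in the HIRA mutants and 7581 in the controls, from 4 of the 12 libraries of the series. ATAC-seq marks DNA that a transposase can reach between nucleosomes, and each library lists the positions of its peaks.

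The mutant embryos were M-Z+ HIRA mutant, a notation for embryos whose mother lacked HIRA and whose father could pass on an intact copy. The controls were wild-type embryos, labelled as the wild-type set for the HIRA mutant. Both groups were pools of hand-picked embryos at 2-3 h, with 2 biological replicates each. The methods describe HIRA null alleles made by CRISPR. The study's text describes that most of these mutant embryos stop or lag in the nuclear divisions, so a pool can hold embryos of unlike stages. HIRA libraries of 0.5-1.5 h were used to say which regions were already open early. In pools of whole embryos, a region open in fewer nuclei and a region less open in every nucleus cannot be told apart.

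HIRA is a histone chaperone that places the variant histone H3.3 into nucleosomes outside DNA replication. In the fly egg it is known for the step in which the sperm chromosomes exchange protamines for histones, and eggs without maternal HIRA are known to develop with the maternal chromosomes alone, so whether these embryos kept the paternal copy cannot be told from peak lists. At 2-3 h the embryo passes from nuclear divisions to cellularization while its own genome is switched on, first at patterning genes and then at housekeeping genes. Pioneer factors such as Zelda and GAGA factor (GAF) are known to open chromatin at this time, while DREF and M1BP are factors of housekeeping promoters.

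Stretches of 5 regions show what a lost, a kept and a gained region can hold. Each was the widest region of its kind with the motif within 100 bp of its midpoint, and lost and gained ones touched no peak of the other group. Lost and kept examples were sought on 2L, 3L, 3R, 4, X and Y, and the gained one on X alone, so it is not the widest of all gained regions with a GAF motif. A region called lost was matched by no mutant peak, a kept one by peaks of both mutants, and a gained one was a mutant region matched by no control peak. Each window has 121 bases of the Release 6 (dm6) RefSeq sequence, read on the plus strand. Capitals mark only the motif named for that window, on either strand. The motifs are TATCGAT for DREF, GGTCACACT for M1BP, GAGAGAG for GAF and CAGGTAG for Zelda.
CG2186, lost, DREF motif: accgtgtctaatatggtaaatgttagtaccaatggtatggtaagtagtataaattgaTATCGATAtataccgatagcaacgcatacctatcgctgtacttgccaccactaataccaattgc
Ire1, lost, M1BP motif: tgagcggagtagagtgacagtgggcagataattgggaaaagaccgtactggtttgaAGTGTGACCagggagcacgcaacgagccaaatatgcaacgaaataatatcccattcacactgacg
ms(3)K81, kept, GAF motif: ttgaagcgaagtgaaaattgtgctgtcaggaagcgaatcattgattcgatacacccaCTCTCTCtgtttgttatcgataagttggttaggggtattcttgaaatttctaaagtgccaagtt
asRNA:CR45366, kept, Zelda motif: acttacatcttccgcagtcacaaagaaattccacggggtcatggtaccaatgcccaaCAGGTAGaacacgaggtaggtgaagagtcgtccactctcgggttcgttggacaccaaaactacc
CG42240, gained, GAF motif: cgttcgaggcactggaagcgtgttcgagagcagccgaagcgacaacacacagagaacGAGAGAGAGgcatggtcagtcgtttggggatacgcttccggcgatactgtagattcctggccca

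The CG2186 window lies at chrX:10857566-10857686, in a promoter region whose midpoint is at -77 bp from the start site, with overlapping matches of the palindromic DREF motif on both strands. There the mutants had no peak, against peaks of 927 and 1067 bp in the controls. The Ire1 window, at chr3R:19861296-19861416, lies at the promoter of this sensor of unfolded proteins, with the region's midpoint at -41 bp from the start site. The mutants had no peak and the controls had peaks of 804 and 497 bp. At ms(3)K81, a gene known to protect paternal telomeres, the window chr3R:26875688-26875808 lies in a promoter region with its midpoint at -41 bp. Besides the GAF motif, this window holds the letters of the DREF motif, left in lower case, so a kept region can hold them too. Its peaks were 1223 and 1089 bp wide in the mutants and 1343 and 1291 bp in the controls.

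The window at the antisense RNA asRNA:CR45366, chr2L:357417-357537, lies in a region with peaks of 2470 and 2473 bp in the mutants and 3163 and 2290 bp in the controls. At CG42240, chrX:6331796-6331916, the mutants had peaks of 945 and 588 bp and the controls had none. Over all control regions, a window of 100 bp either side of the midpoint held the GAF motif in 10.0%, the Zelda motif in 6.33%, the DREF motif in 3.59% and the M1BP motif in 1.11%. A match is a description of the sequence and no evidence that the factor was bound.

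Of the control regions, 1630 were lost, which is 21.5% of 7581 (95% Wilson interval 20.6 to 22.4%), and 4236 were kept. The other 1715 were matched in 1 mutant library only. Of the mutant regions, 640 were gained, which is 11.5% of 5589 (10.6 to 12.3%). Without control replicate 1 the shares lost and gained were 32.9 and 19.6%, without control replicate 2 they were 35.9 and 15.2%, and without mutant replicates 1 and 2 the share gained was 20.8 and 28.8%. Intervals cover counting error only. HIRA mutant replicate 1 had no match at 25.5% of the control regions and replicate 2 at 40.1%, and replicate 2 also had the fewest peaks, 7122 against 10595 in replicate 1. Among the peaks of control replicates 1 and 2, the share without a match in the other control was 32.8% and 23.2%. The lists carry no read counts, so the depth of the libraries is unknown and its part in these shares was not tested.

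Regions close to the 20% rule were few. The best overlap with a mutant peak lay between 15 and 20% for 16 control regions, just outside the rule, and between 20 and 25% for 48, just inside it. Of the lost regions, 38 (2.33%) still touched a mutant peak. Among the widest lost regions this was common, since 5 of the 10 widest held a narrow mutant peak. In what follows, a width is that of the widest peak that touches the region.

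**Figure D1:**
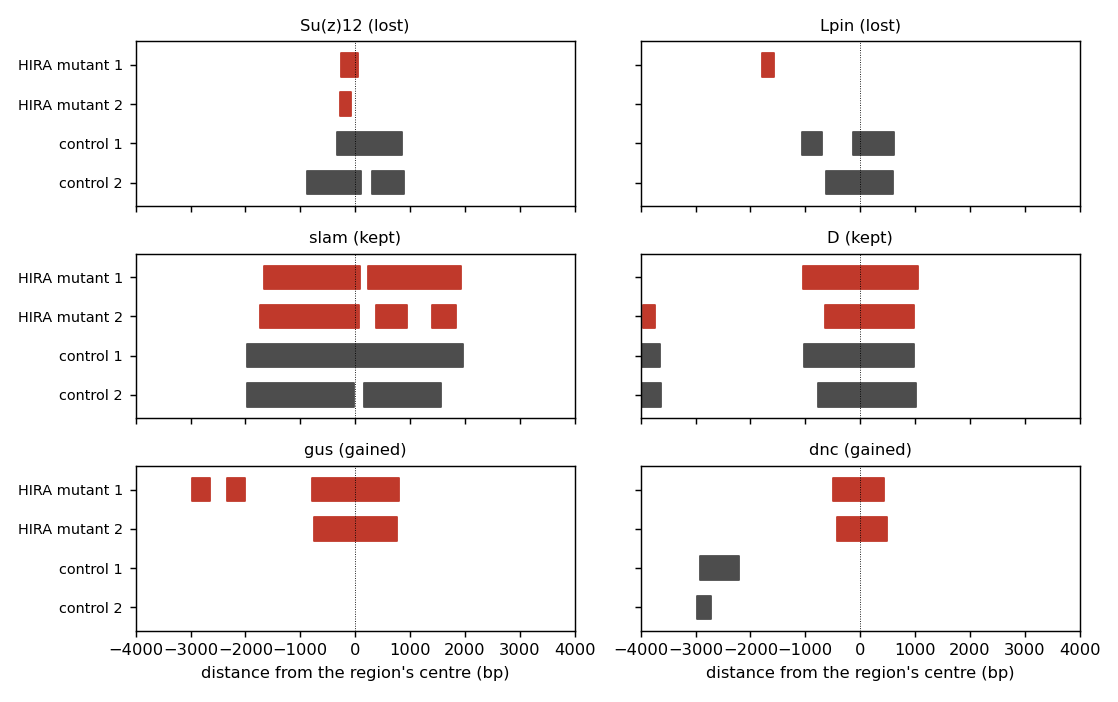
Peaks of the 2 HIRA mutant libraries (red) and the 2 control libraries (grey) around 6 regions, drawn by distance in bp from the region's centre (dotted line). Su(z)12 kept narrow peaks of 319 and 202 bp in the mutants although its region counted as lost, Lpin had no mutant peak in its region, and the central regions at gus and dnc had peaks in both mutants and in neither control.

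The widest lost regions all lay at promoters, 10 of 10, and 1 was on the X chromosome. The 10 widest kept regions were much alike in this, with 9 at promoters and 1 on X. Su(z)12 encodes a subunit of the Polycomb complex PRC2 and headed this list. Its peaks were 319 and 202 bp wide in the mutants and 1187 and 984 bp in the controls, so the groups did not overlap and a narrow peak remained. At Membrin, a SNARE protein of the Golgi, the mutants had no peak and the controls had peaks of 1599 and 1126 bp. The promoter of Lpin, the fly lipin, a phosphatidate phosphatase, had no peak in the mutants, against 745 and 1207 bp in the controls. At sqd, which encodes an RNA-binding protein of the hnRNP class, mutant 1 had a peak of 265 bp and mutant 2 had none, against 1367 and 1378 bp in the controls. CG12576, with peaks of 235 and 306 bp in the mutants and 1534 and 1242 bp in the controls, was like Su(z)12 in keeping a narrow peak in both. Cpr65Au, a cuticle protein gene, TTLL1B and JMJD4 had no mutant peak in the region. DNAlig3 and snoRNA:Me28S-A1322 had a narrow one in mutant 1 only, of 213 and 248 bp.

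Losses were spread over many genes. The lost regions had 1490 nearest genes, of which 1361 had 1 lost region, 120 had 2, and 9 had 3 or more. Tet, the fly member of the TET dioxygenase family, had 4 lost of 8 control regions, and boi, a co-receptor for Hedgehog, had 4 of 7. The 3 regions nearest to the start site of Act88F, the actin of the flight muscle, were all lost, with control widths between 215 and 581 bp. They lay 3499 to 5651 bp from that start site, in coding exons that need not belong to Act88F. At CG6220 all 3 regions were lost as well. Antp, pyd and hth each had 3 lost regions among 19, 13 and 14, and their other regions were mostly kept, namely 12, 8 and 11. At Antp, the Hox gene of the thorax, the lost regions lay in introns. One of these was 675 bp and 412 bp wide in the controls and absent in both mutants. The promoter region of Antp nearest to a start site, at -68 bp, was kept with 322 and 296 bp in the mutants and 405 and 368 bp in the controls.

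Regions that had been open early were lost less often than regions that opened later. Of the 3020 control regions found in both control libraries at 0.5-1.5 h, 5.10% were lost (4.37 to 5.94%), and 84.0% were kept. Of the 1958 found in 1 early control library, 21.8% were lost. Of the 2603 found in neither, 40.3% were lost (38.5 to 42.2%), and 28.1% were kept. The regions that were open early were also wider, with a median of 634 bp against 419 bp for those found in neither. Over 10 classes of width, the difference in the share lost was -29.9 percentage points after standardisation, beside -35.2 without. Single control peaks of the early class were also found more often in the other control, since 1.75% and 0.944% had no match there, against 54.5% and 42.9% of the peaks found in neither early library. Mutant replicates 1 and 2 had no match for 6.95% and 14.2% of the early regions, and for 45.9% and 66.3% of the regions found in neither.

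The early HIRA mutants gave the same order. Of the 805 control regions at 2-3 h that were matched in both HIRA mutant libraries of 0.5-1.5 h, 1 was lost, and of the 1362 matched in 1 of them, 3.89% were lost. Of the 5414 matched in neither, 29.1% were lost. Of the lost regions themselves, 54 of 1630 (3.31%) had been open in an early mutant library, against 46.0% of the kept ones. Gained regions had rarely been open in early controls, since 6 of 640 were in both early control libraries and 571 (89.2%) in neither, against 46.8 and 32.2% of all mutant regions. An early mutant peak matched 86 of them (13.4%), against 38.8% of all mutant regions.

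By position in genes, coding exons and promoters had the highest shares lost among the large classes. Coding exon regions were lost in 27.3% (191 of 700), promoter regions, within 1 kb of a start site, in 22.7% (964 of 4241), intergenic regions in 18.9% (167 of 883) and intronic regions in 17.5% (284 of 1625). The order of promoters and other positions depended on the requirement that both controls share a region. Promoters minus all other positions was 2.79 percentage points, -0.57 and -3.34 when control replicate 1 or 2 was left out. Peaks in coding exons were the least repeatable between controls, with 54.0% and 40.5% of those of replicates 1 and 2 lacking a match in the other. Among regions found in neither early control library, 43.7% of promoter regions, 41.5% of coding exon regions, 35.7% of intergenic regions and 34.8% of intronic regions were lost.

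**Figure D2:**
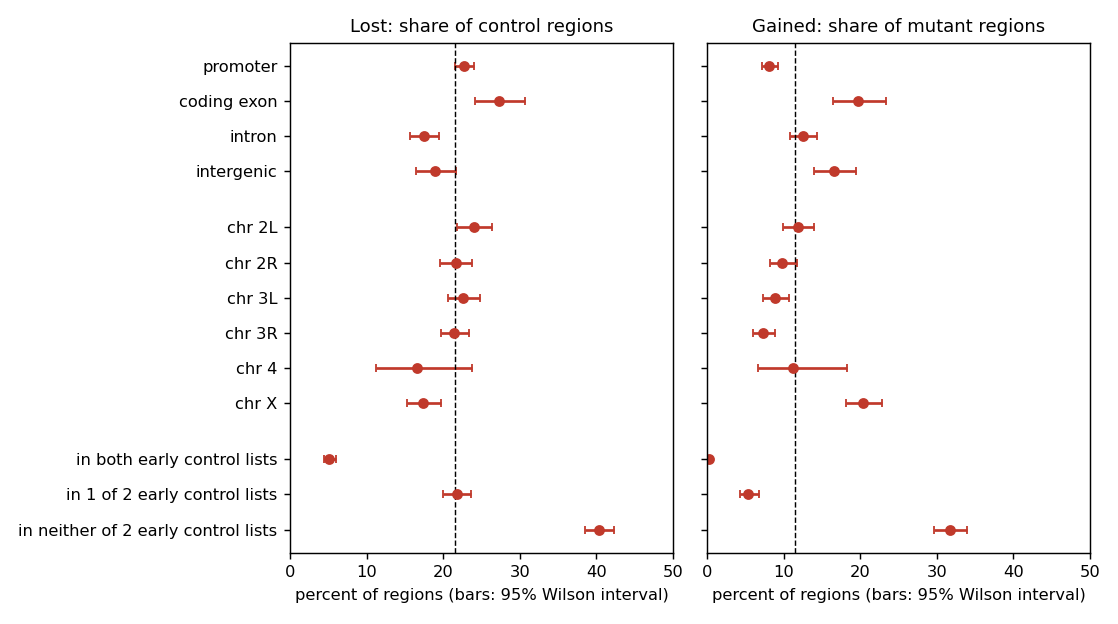
Percent of control regions lost (left) and of mutant regions gained (right) by gene position, chromosome and presence in the 2 control lists of 0.5-1.5 h. Points are shares, bars are 95% Wilson intervals (counting error only), and dashed lines mark the shares over all regions, 21.5% and 11.5%.

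Gained regions lay at promoters less often than mutant regions as a whole. Of the 640, 233 (36.4%) were at promoters, against 51.3% of all mutant regions, and their median distance to a start site was 2190.5 bp, against 1191 bp for all mutant regions. The share gained was 8.13% at promoters, 12.5% in introns, 16.5% between genes and 19.6% in coding exons. A similar order held between the controls alone. Of the peaks of control replicates 1 and 2, 26.1 and 19.6% at promoters lacked a match in the other control. These shares were 32.8 and 22.6% in introns, 36.5 and 21.7% between genes and 54.0 and 40.5% in coding exons. Whether the positions of gained regions go beyond this repeatability was not tested. Promoters minus all other positions was -6.83 percentage points in the share gained, -10.8 without mutant replicate 1 and -14.6 without mutant replicate 2. Gained regions were narrow, with a median of 398.5 bp, as were lost regions with 417 bp, against 576 bp for kept regions.

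The share of peaks at promoters was 46.8 and 48.1% in the mutant libraries and 50.7 and 53.2% in the control libraries, so all mutants lay below all controls. The means were 47.4 ± 0.88% and 51.9 ± 1.77% (SD, n = 2 each; exact two-sided permutation test, p = 0.33, the smallest that 2 libraries against 2 can give, adjusted p = 0.42 over 14 shares). Introns held 23.4 and 24.5% of the mutant peaks and 21.5 and 21.4% of the control peaks, and intergenic DNA 13.2 and 13.3% against 12.3 and 11.4%. In both of these the mutants lay above the controls. The shares of coding exons overlapped between the groups.

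The X chromosome stood apart from the autosomes among the gained regions. It held 18.8 and 19.5% of the mutant peaks (1993 and 1392) and 14.5 and 14.4% of the control peaks (1659 and 1441). The means were 19.2 ± 0.52% and 14.5 ± 0.07% (SD, n = 2 each), a difference of 4.72 percentage points, which is larger than the spread in either group but cannot pass the exact permutation test (p = 0.33, adjusted p = 0.42). The number of X peaks overlapped between the groups, while the shares did not. Of the 5 autosomal arms, 2L, 2R, 3L and 3R had smaller shares in both mutants than in both controls, and chromosome 4 had larger ones, 1.89 and 2.02% against 1.70 and 1.64%. At 0.5-1.5 h the X held 20.8 and 20.4% of the mutant peaks and 19.4 and 18.2% of the control peaks. Over both stages the mean difference was 3.25 percentage points, higher in all 4 mutant libraries than in the controls of their stage (exact permutation test within stage, p = 0.056, the smallest that 36 arrangements can give). This test over both stages was added after the 2-3 h values were seen. The share on X also differed between sets of control libraries. Over the 8 libraries other than HIRA mutants it ranged between 11.5 and 19.4%, and the 2 control libraries of the dPCIF1 set at 0.5-1.5 h had 12.2 and 12.2%, against 19.4 and 18.2% in the HIRA controls of that stage. That gap is wider than the difference between HIRA mutants and controls at 2-3 h.

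**Figure D3:**
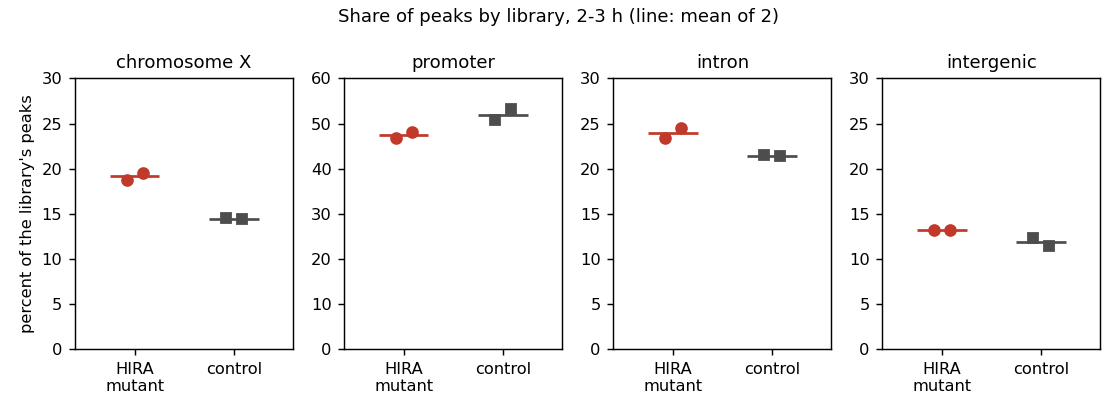
Share of each library's peaks, in percent, on chromosome X, at promoters, in introns and between genes, for the 2 HIRA mutant libraries (red circles) and the 2 control libraries (grey squares) at 2-3 h, with lines at the means. The X, intron and intergenic shares of both mutants lie above both controls, and the promoter shares lie below.

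Of the 1080 mutant regions on X, 220 were gained, which is 20.4% (18.1 to 22.9%), against 9.32% (8.50 to 10.2%) of the 4507 on autosomes. X thus held 34.4% of all gained regions, against 19.3% of all mutant regions. The difference was present in each position, since on X 14.3% of promoter regions, 22.1% of intronic, 33.0% of intergenic and 34.7% of coding exon regions were gained, against 6.73, 9.64, 13.7 and 16.0% on autosomes. Among mutant regions that were in neither early control library, 193 of 368 on X (52.4%) and 378 of 1430 on autosomes (26.4%) were gained. X-linked and autosomal gained regions were alike in width, with medians of 409.5 and 389.5 bp. The GAF motif was in 14.1% of the gained regions on X, against 19.3% of the shared regions on X, and in 9.05% of those on autosomes, against 13.6% of the shared ones there. The lists hold no read counts by which the number of X chromosomes per nucleus could be measured.

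Of the widest gained regions, 6 of 10 were on X. At dnc, a cAMP phosphodiesterase gene on X, the mutants had peaks of 923 and 908 bp at a promoter and the controls had none. At stnA, which acts in synaptic vesicle recycling, and at ovo, a zinc finger factor of the female germline, the gained regions lay in coding exons. Their peaks were 1003 and 371 bp wide at stnA and 979 and 388 bp at ovo in the mutants, with none in the controls at either gene. The widest of all, nearest to gus on 2R, lay between genes with 1586 and 1516 bp in the mutants and none in the controls. At lncRNA:CR45220 a narrow peak of 200 bp in control 1 touched the region, whose mutant peaks were 1142 and 1267 bp.

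Of the 10 genes with most gained regions, 8 were on X. kek5, which encodes a transmembrane protein with leucine-rich repeats, had 4 gained regions. They lay in introns, from 18900 to 50412 bp downstream of a start site, with mutant peaks between 235 and 533 bp. Its promoter region was kept, with 1446 and 1104 bp in the mutants and 1471 and 1418 bp in the controls. Tlk, a kinase known to act on the histone chaperone Asf1, had 3 gained regions and 5 kept regions out of the 8 mutant regions nearest to it. Bx, which encodes a LIM-domain protein, gained 2 regions, 567 and 223 bp wide and 802 and 213 bp wide in the mutants. The gene shot, a cytoskeletal linker on 2R, gained 3.

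The 2 gene entries with most gained regions, 6 each, lay in the proximal end of X. They were 2SrRNA:CR45864, a gene of the ribosomal DNA, and a noncoding RNA listed as FBtr0473838_df_nrg, and the regions lay between genes, far from either start site. None of these gained regions touched a control peak. At one 2SrRNA:CR45864 region the mutants had 292 and 384 bp, and the HIRA mutants of 0.5-1.5 h had 226 and 280 bp. Ribosomal DNA and its surroundings hold near-identical copies, so where reads of these regions come from is uncertain. The repeat-rich proximal end of X held 18 of the 220 gained regions, and without it (a choice made after the data were seen) X minus autosomes in the share gained was 10.4 percentage points, beside 11.1 with it.

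Away from promoters, regions on X were lost less often than regions on autosomes. Distal regions, meaning those outside promoters, were lost in 10.7% on X (49 of 458, 8.19 to 13.9%) and in 21.4% on autosomes (616 of 2880, 19.9 to 22.9%). Promoter regions were lost in 21.9% on X and 22.9% on autosomes, with overlapping intervals. HIRA mutant replicates 1 and 2 had no match for 15.1 and 22.3% of the distal regions on X and for 25.8 and 40.6% of those on autosomes. Regions on X had been open early more often, since 52.2% were in both early control libraries, against 37.6% on autosomes. Over all regions, X minus autosomes was -4.81 percentage points in the share lost, and -1.11 after standardising over early state and width. That alternative was chosen after the data were seen. Among promoter regions open in both early control libraries, 9.84% were lost on X (7.19 to 13.3%) and 4.70% on autosomes (3.73 to 5.91%). Lost regions on X were at promoters in 75.4%, against 56.9% on autosomes.

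**Figure D4:**
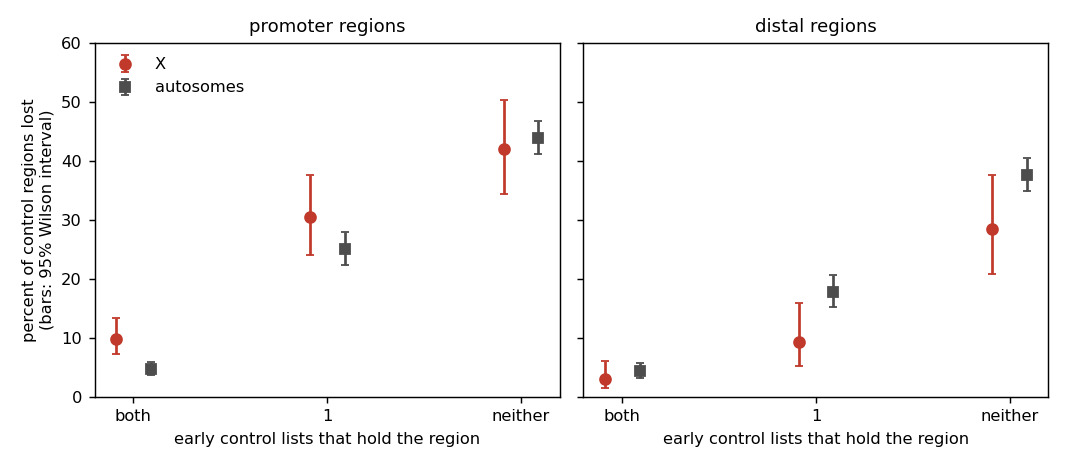
Percent of control regions lost on X (red circles) and on autosomes (grey squares), for promoter regions (left) and distal regions (right), by the number of control lists of 0.5-1.5 h that hold the region. Bars are 95% Wilson intervals. Distal regions of X lie below those of autosomes where 1 or neither early list holds the region, and promoter regions of X lie above where both do.

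On the Y chromosome, 2 control regions were found, both near copies of the Su(Ste) repeats. One was kept, with 682 and 704 bp in the mutants and 563 and 581 bp in the controls, and the other had no peak in the mutants and 526 and 503 bp in the controls. Repeats of this kind have near-identical copies, so these positions are uncertain.

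Nearly all genes that pattern the embryo kept a promoter region. Of 94 genes in 9 lists of patterning genes, from gap genes to Hox genes and the genes of the germ layers, 91 had a control region within 1 kb of a start site. All such regions were lost at 1 of these 91 genes (1.10%, 0.194 to 5.96%), which was GATAe, a factor of the endoderm. Over all 5337 genes with such a region the share was 22.4%. At 87 of the 91 genes at least 1 promoter region was kept. This count over promoters was added after the data were seen. A gene with several promoter regions counted as lost only if it lost every one, and the count was not adjusted for width or early state. Of the regions of the patterning lists, 61.5% were open in both early control libraries, against 39.8% of all control regions. Promoter regions open in both were lost in 5.73% over all genes. Counted by nearest start site and at all positions, 30 of 304 regions of the patterning lists were lost (9.87%, 7.0 to 13.7%). From the width of these regions alone 20.5% would be lost, and from width and early state together 16.1%. Mutant replicate 1 alone had no match for 13.2% of the 304 regions and replicate 2 for 23.4%, so the share lost was 23.4% without mutant replicate 1. Peaks of the patterning lists were also more repeatable between the controls. By list, 8.33 to 23.2% of those of control replicate 1 lacked a match in the other control, and 2.0 to 18.2% of those of replicate 2. Over all peaks these shares were 32.8 and 23.2%.

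Gap and terminal genes, the first tier of segmentation, lost 3 of 42 regions, and all 13 genes with an open promoter kept a promoter region. The widest promoter region of gt had 1610 and 1566 bp in the mutants, against 1493 and 1560 bp in the controls, so both mutants were slightly wider than both controls. hb had 1180 and 964 bp in the mutants and 1264 and 1173 bp in the controls. The lost regions of this list lay at -2519 and 4240 bp from the start site of tll, and in an intron near Kr. The pair-rule genes, which set up alternate segments, lost 3 of 29 regions, near ftz, hry and run. At ftz the promoter was kept with 1189 and 1149 bp in the mutants and 1225 and 1355 bp in the controls. The region 4063 bp downstream had no mutant peak, against 330 and 277 bp in the controls.

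Neurogenic ectoderm genes lost 1 of 44 regions, in an intron near sim, the master gene of the midline. Mesoderm genes lost 4 of 36, among them a region at -1035 bp from a start site of twi, the mesoderm determinant, with no mutant peak and 262 and 264 bp in the controls. The main twi promoter was kept, with 669 and 325 bp in the mutants and 1024 and 1332 bp in the controls. Hox genes lost 5 of 49, dorsal ectoderm genes 4 of 41, head genes 4 of 40 and gut genes 2 of 26. Segment polarity genes, which act within each segment, lost 6 of 29, and all 6 lay outside promoters, near en, mid, ptc and wg. The 8 open promoters of this list all kept a region. Genes of the E(spl) complex, targets of Notch, lost none of 12, and cellularization genes 2 of 20.

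Genes of basic cell functions lost more. In 4 lists of cytosolic and mitochondrial ribosomal proteins, proteasome subunits and the respiratory chain, 29 of 71 regions were lost (40.8%, 30.2 to 52.5%). Width alone gave 21.8% for these regions, and width with early state 25.6%. Of their 106 genes with a control region at a promoter, all such regions were lost at 34 (32.1%, 24.0 to 41.5%), beside 22.4% over all genes. RpL35, a protein of the large ribosomal subunit, had no mutant peak at a promoter where the controls had 968 and 534 bp, and RpS5a, of the small subunit, none where the controls had 417 and 481 bp. RpL19 was a borderline case, since its promoter held both a gained and a lost region. The mutants had peaks of 754 and 406 bp and the controls peaks of 389 and 365 bp, and the peak of mutant replicate 1 touched the control peaks without reaching the overlap required. By list, 9 of 21 regions of cytosolic ribosomal proteins, 5 of 8 of mitochondrial ribosomal proteins, 6 of 15 of proteasome subunits and 9 of 27 of the respiratory chain and ATP synthase were lost. By promoter, cytosolic ribosomal proteins with 10 of 40 genes and the respiratory chain with 7 of 28 lay near the share over all genes, while mitochondrial ribosomal proteins with 10 of 22 and proteasome subunits with 7 of 16 lay above it. The same lists gained 8 of 39 mutant regions (20.5%, 10.8 to 35.5%), an interval that includes the 11.5% over all. These intervals are wide, and mutant replicate 1 alone had no match for 43.7% of the 71 regions and replicate 2 for 63.4%.

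**Figure D5:**
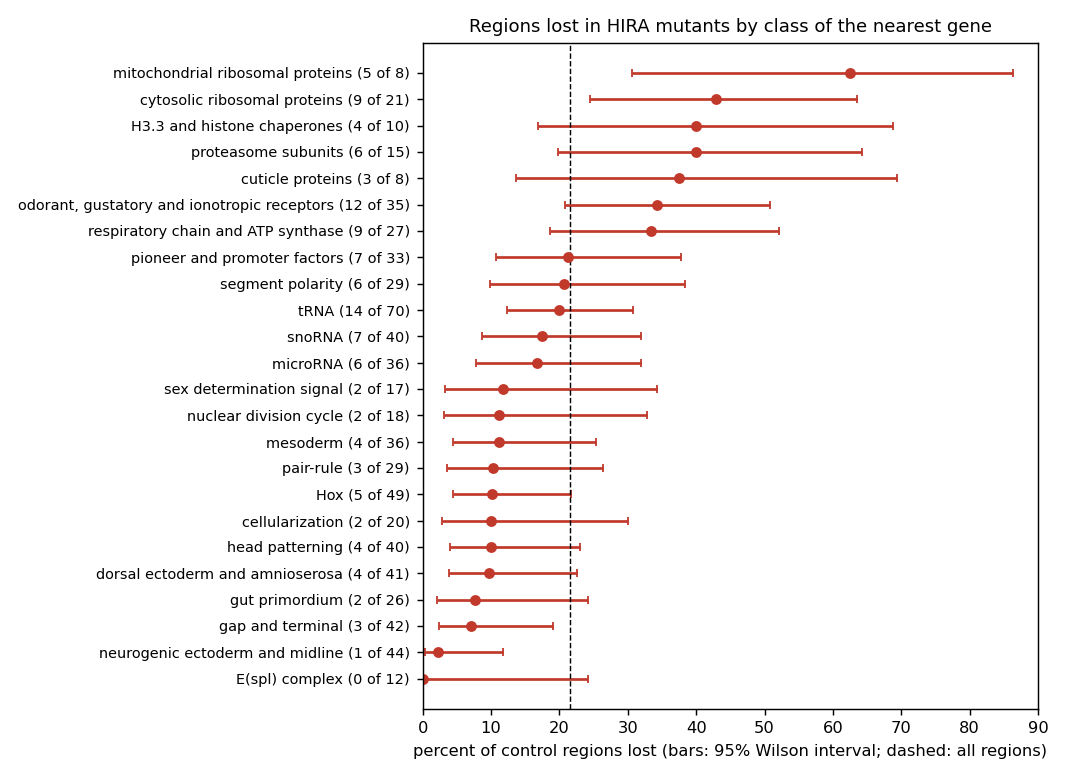
Percent of control regions lost by class of the nearest gene, for classes with at least 8 regions, with lost and total regions in brackets. Points are shares, bars are 95% Wilson intervals, and the dashed line is the share over all regions, 21.5%. The points of most patterning classes lie below the line, with segment polarity genes at it (6 of 29). The points of ribosomal, proteasome, histone chaperone, cuticle, receptor and respiratory chain genes lie above it. Of these, only the cytosolic and mitochondrial ribosomal protein genes have bars wholly above the line. Among the patterning classes, only gap and terminal and neurogenic ectoderm genes have bars wholly below it.

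The genes of H3.3 itself and of histone chaperones had 10 control regions, of which 4 were lost, all at promoters. With so few regions the interval, 16.8 to 68.7%, includes the share over all regions, 21.5%. Counted by gene, 2 of 8 (Chd1 and Nap1) lost all of their promoter regions, near the 22.4% over all genes. The lost regions belonged to His3.3B, which encodes H3.3, to asf1 and Nap1, which encode histone chaperones, and to Chd1, a chromatin remodeller. The asf1 region had no mutant peak, against 374 and 598 bp in the controls. The His3.3B region, at -612 bp from the start site, had none against 306 and 372 bp, and the regions of Chd1 and Nap1 were absent against 448 and 349 bp and 320 and 448 bp. Both kept promoters, those of Caf1-105 and Caf1-180, which encode subunits of the replication-coupled chaperone CAF-1, were narrower in the mutants. They measured 297 and 289 bp against 775 and 531 bp at Caf1-105, and 375 and 251 bp against 508 and 530 bp at Caf1-180. For Hira itself no region was found in both libraries of either group. Within the gene, mutant replicate 1 had a peak of 238 bp at the start site and replicate 2 none, and control replicate 1 had a peak of 397 bp there while the peak of control replicate 2, also 397 bp, lay 1927 bp away. A peak list does not show which allele the embryos carried.

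Among pioneer and promoter factors, 7 of 33 regions were lost, a share close to that over all regions. They included promoter regions of zld, the gene of Zelda, of Cp190 and of psq. The zld region had no mutant peak, against 383 and 241 bp in the controls, while another promoter region of zld was kept. Clamp, whose protein binds GA repeats, had 1 lost and 1 kept promoter region, and the kept one was 549 and 535 bp wide in the mutants and 2091 and 952 bp in the controls. Genes of small RNAs, with 14 of 70 regions lost for tRNA, 7 of 40 for snoRNA and 6 of 36 for microRNA genes, were also close to the share over all regions. Receptor genes for odours and tastes lost 12 of 35, cuticle protein genes 3 of 8, sex determination genes 2 of 17 and nuclear division genes 2 of 18. As markers of other tissues, 2 of 9 genes of the adult ovary follicle had a control region at a promoter, beside 29.2% of all 18277 genes and against 91 of the 94 patterning genes. Genes of later differentiation had one at 3 of 10 and pole cell genes at 2 of 3.

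At kept regions the peaks were narrower in the mutants. Over the 4236 regions the median widths were 473 and 413 bp in the mutants and 525 and 504 bp in the controls. The means of these were 443 ± 42.4 bp and 514.5 ± 14.8 bp (SD, n = 2 each), a difference of -71.5 bp (exact permutation test, p = 0.33, the smallest it can give). It was -44 bp without mutant replicate 2 and -31 bp with an overlap of 50%. Both mutants were narrower than both controls at 1745 regions (41.2%) and wider than both at 498 (11.8%). Starting from the 4284 mutant regions matched in both controls in place of the control regions, these shares were 41.6% and 11.5%. The share narrowed was 48.2% at promoters, 38.3% between genes, 32.5% in introns and 23.4% in coding exons, and 34.9% on X against 42.5% on autosomes. It was 49.9% at regions open in both early control libraries and 183 of 732 at those in neither. The former also had wider control peaks, with medians of 606 and 586.5 bp against 375 and 356.5 bp. No peak was narrower than 200 bp, so narrow regions had less room to narrow. None of these shares was matched for starting width.

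Among the 10 widest kept regions, 7 were narrower in both mutants than in both controls. These 10 were picked by their width in the controls, which favours wide control peaks, so the count is a description only. The widest was at slam, which encodes a protein of the cellularization front, with 1761 and 1811 bp in the mutants and 3948 and 1959 bp in the controls. These are the widest single peaks, and only control 1 had 1 unbroken peak there. The region was split into several peaks in both mutants and in control 2, so the open length differed less than these widths. Nrt, a cell adhesion protein, had 1688 and 1059 bp in the mutants and 3242 and 3128 bp in the controls. Pen, the fly importin alpha 2, had 1353 and 887 bp in the mutants, against 2774 and 2091 bp in the controls. The SOX gene D did not narrow in the same way, since its 2095 and 1609 bp in the mutants overlapped with 2009 and 1783 bp in the controls. The region nearest to CG15343 on X was almost the same in all 4 libraries, 2082 and 2070 bp in the mutants and 2078 and 2088 bp in the controls.

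The share of kept regions narrowed varied between lists of patterning genes, with few regions in each and no interval given. Both mutants were narrower than both controls at 21 of 34 kept regions of gap and terminal genes, 15 of 22 of pair-rule genes and 17 of 27 of head genes, beside 41.2% over all kept regions, 49.9% of those open early and 48.2% of promoters. Hox genes with 14 of 32, dorsal ectoderm genes with 15 of 32, neurogenic genes with 18 of 38 and gut genes with 10 of 20 lay near these shares. It was 9 of 13 for nuclear division genes, among them fzr, an activator of the anaphase-promoting complex, with 274 and 306 bp in the mutants and 740 and 678 bp in the controls. Mesoderm genes with 9 of 28 and segment polarity genes with 4 of 17 lay below the share over all regions. The median log2 ratio of width, mutant over control, gave another order. It was -0.162 for segment polarity genes, almost the -0.160 of all kept regions, and -0.139 for head genes. For mesoderm, gap and terminal, and pair-rule genes it was -0.113, -0.220 and -0.200. The lists also differed in the width of their control peaks and were not matched for it. Within the segment polarity list, the promoter of ptc, the Hedgehog receptor, was one of the 4. It had 428 and 447 bp in the mutants and 1129 and 1172 bp in the controls. In the Hox list, the promoter of Scr had 468 and 427 bp in the mutants, against 1003 and 1009 bp in the controls.

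By motif, regions with a GAF motif were lost in 10.8% (82 of 758) and with a Zelda motif in 13.1% (63 of 480), against 27.2% with a DREF motif (74 of 272) and 32.1% with an M1BP motif (27 of 84). Regions with none of these motifs were lost in 23.0%. From width and early state, 18.3% would be lost with GAF, 17.2% with Zelda, 24.7% with DREF and 23.2% with M1BP. The DREF motif was in 3.59% of control regions and in 2.94% of windows placed 1 kb to either side, so most of its matches are as frequent as in flanking DNA. For M1BP these shares were 1.11 and 0.270%. Within regions open in neither early control library the order was the same, with 28.5% for GAF, 32.4% for Zelda, 42.9% for DREF and 56.7% for M1BP. The last of these rests on 17 of 30 regions (39.2 to 72.6%). Lost regions held the GAF motif in 5.03% and gained regions in 10.8%, against 13.4% of kept regions and 2.86% of windows placed 1 kb to either side of the control regions. The Zelda motif was in 3.87% of the lost, 3.28% of the gained and 7.86% of the kept regions, against 1.45% of the shifted windows. The median GC content of the windows was 47.8% in lost, 50.2% in gained and 48.8% in kept regions.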

How the data were processed

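ATAC-seq peaks of 2 HIRA mutant and 2 control libraries at 2-3 h were analysed, with 4 HIRA libraries of 0.5-1.5 h for the early state. Per the labels and methods, the authors trimmed reads with Trimmomatic 0.39, mapped them to dm6 with Bowtie2 2.2.5, marked duplicates, removed reads of low quality or without a unique position with SAMtools 1.18, and called peaks in each library with MACS2 2.2.7.1. How the transposase offset was handled is not given in the sources used here. The deposited files hold other values than counts, namely the chromosome, start and end of each peak in bp. They have no summit, height or q-value, so a peak shows only presence and width, and the depth of the libraries is unknown.

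Coordinates are counted from 1 on dm6. Every peak ended within its chromosome in the RefSeq sequence of Release 6, and genes came from Ensembl release 115. A region took the annotation of promoter (within 1 kb of a start site), coding exon, UTR, noncoding exon, intron or intergenic, in that order. Its gene was that of the start site nearest to its midpoint. The annotation was taken over all genes, so an exon or intron can belong to another gene than the one named. Early state is the number of control libraries of 0.5-1.5 h that match a region. A share expected from width is the mean, over a list's regions, of the share lost in their width class, of 10.

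Groups of libraries were compared by the exact two-sided permutation test, Benjamini-Hochberg adjusted over 14 shares of annotation and chromosome. Regions are not replicates, so shares of regions have Wilson intervals and no test. The procedure was tested on simulated loss. Alternatives were the overlap, equal peak numbers, the promoter distance, width classes, each library left out and a replicate block. Gene lists numbered 29. The members and lists were chosen with earlier results of these data known. The text names list members with lost, gained or the widest kept promoter regions, the 10 widest regions of each kind the 10 genes with most lost or gained regions, Hira, and the genes of the sequences shown, which were picked after the data were seen. Roles of genes are background. The code ran on matplotlib 3.10.9, scipy 1.17.1, numpy 2.4.6, python 3.11.15 and pandas 2.3.3.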

Additional observations from a re-analysis of the deposited data

How the results depend on the processing

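In all, 35 results were recomputed under 13 settings. Of the 294 values, 167 were labelled unchanged, 123 moved and 4 changed sign. Results with a permutation test counted as unchanged unless their sign changed, however large the move. The promoter share of peaks, mutant minus control, was -6.83 percentage points with equal peak numbers, beside -4.50, and counted as unchanged. Other results counted as moved when they differed by at least the SD between the values without each mutant library. The peak lists hold neither depth nor peak height, so the effect of sequencing depth could not be examined, and 2 libraries a group limit every comparison of groups.

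Leaving out 1 library at a time gave 25.5 to 40.1% of control regions lost and 15.2 to 28.8% of mutant regions gained. Over the same settings, promoters minus other positions in the share lost ranged from -3.34 to 3.55 percentage points, and was -0.57 without control replicate 1 and -3.34 without control replicate 2. X minus autosomes lay between -9.00 and -5.32, and regions open early minus those opened later between -52.2 and -38.9. The kept-width difference lay between -99.5 and -44 bp. An arm of 1 library gives a share with no test.

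Promoters minus other positions in the share lost was 5.96 with an overlap of 50%, 5.16 with equal peak numbers, 5.12 standardised over width and 6.06 over early state and width. X minus autosomes was -1.11 over early state and width, and at promoters alone it was 1.13 with an overlap of 50%, beside -0.99. The settings with early state, without the end of X and by promoters of genes were chosen after seeing the data.

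With a replicate block, in which libraries of the same number were compared, 45.7% of control regions were lost and 32.6% of mutant regions gained. Promoters minus other positions was then -1.92, X minus autosomes -8.90 and early minus later -57.2. The labels do not say whether a number marks a shared batch. The deviations of same-numbered libraries in log2 width had r = 0.06 over 4236 kept regions. This value covers widths at kept regions only, so it cannot decide whether same-numbered libraries were prepared together.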
